A study of Mus with 51 samples.

Results

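Cd69 was followed as 1 gene of the 34923 features in the deposited count table, picked by its symbol, across all 18 groups and 51 libraries of the series. Its identifier is ENSMUSG00000030156, and RefSeq places it on chromosome 6 from 129267324 to 129275375 of GRCm38, the mm10 build named in the submitters' processing notes, a span of 8052 bases. The lymph nodes of 5C.C7 mice, on the B10.A background, gave the CD4 T cells. The mice carry the transgene Tg(Tcra5CC7,Tcrb5CC7)lwep, the Rag2tm1Fwa deletion and H2-T18a. All groups share that genotype, so every library comes from a fixed T cell receptor on a Rag2-deficient host. Such a host makes no mature T or B cells of its own beyond the T cells the transgene rescues.

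There were 6 sorting phenotypes, each taken at 1, 6 and 24 h. MCC+GP CD69-hi and MCC+GP CD69-lo cells had received both MCC and GP and were sorted on high or low CD69 protein. MCC CD69-hi and MCC CD69-lo cells had received MCC alone, the moth cytochrome c peptide that the 5C.C7 receptor recognises. GP cells had received GP alone, which the labels do not spell out in a series whose title concerns endogenous self-peptides, and NP cells had received no peptide. NP, GP and MCC CD69-lo have 2 libraries each at 6 h and the other 15 groups have 3. Nothing in the labels says that replicates came from separate mice or cultures, so p-values measure the spread between these libraries, which may be technical.

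CD69 is a C-type lectin receptor of the plasma membrane and one of the earliest surface proteins of an activated lymphocyte. T cell receptor signals switch the gene on within hours through factors such as AP-1, Egr, NFAT and NF-kB, and its RNA has AU-rich elements that shorten its life. At the surface CD69 binds the sphingosine 1-phosphate receptor S1PR1 and takes it inside, which holds activated cells in the lymph node. Activated B cells, NK cells and other leukocytes make CD69 as well. Because the fractions were gated on CD69 protein, a difference in Cd69 RNA across that gate is not independent of how the cells were chosen.

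Library totals ran from 29030 to 10278776 counts with a median of 5436653, and Cd69 itself had 21 to 8396 counts. The shallowest group was MCC+GP CD69-lo at 24 h, with 52, 21 and 97 Cd69 counts in totals of 237390, 29030 and 301455. All 10 T cell markers checked had counts in every group. RNA of other cells was also present. Summed over 20 B cell genes, the level was 2905 to 5218 plain CPM (counts scaled to library size) in MCC+GP CD69-hi, 3225 to 5031 in MCC CD69-hi, 1077 to 3196 in MCC+GP CD69-lo, 1364 to 4570 in MCC CD69-lo, 576 to 899 in GP and 547 to 749 in NP libraries at 1 h. A myeloid and dendritic list of 21 features summed to 6966 to 10480 plain CPM in MCC+GP CD69-lo at 24 h, against 106 to 239 in MCC+GP CD69-hi libraries at that time. The titles end in a plate well, and the wells repeat the order of the groups in 4 rounds, the first of which holds 15 libraries. What the rounds stand for is not given in the sources used here. In bulk RNA fewer cells of a type and less RNA per cell cannot be told apart.

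Mean Cd69 RNA was highest at 1 h in every phenotype and far higher in the 4 that had received MCC. The values below are CPM scaled by trimmed mean of M-values (TMM). At 1 h Cd69 stood at 2004, 1980 and 1130 CPM in MCC+GP CD69-hi libraries and at 1178, 1931 and 1920 CPM in MCC CD69-hi libraries. The low fractions held 733, 1370 and 1193 CPM with MCC+GP and 1592, 822 and 947 CPM with MCC. Cells without MCC held 186, 215 and 144 CPM with GP and 329, 208 and 120 CPM with NP. All 12 libraries with MCC at this time lay above all 6 without it, while the high and low fractions overlapped.

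At 6 h Cd69 stood at 865, 946 and 1128 CPM in MCC+GP CD69-hi libraries and at 753, 1165 and 1101 CPM in MCC CD69-hi libraries. MCC+GP CD69-lo libraries held 598, 846 and 699 CPM and the 2 MCC CD69-lo libraries 358 and 479 CPM. The 4 remaining libraries held 52.7 and 46.3 CPM with GP and 126 and 33.2 CPM with NP. Here the fractions separated, with each CD69-hi group above its own CD69-lo group.

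By 24 h Cd69 was at 134, 183 and 194 CPM in MCC+GP CD69-hi and at 193, 217 and 214 CPM in MCC CD69-hi libraries. MCC+GP CD69-lo libraries held 166, 347 and 252 CPM, and MCC CD69-lo libraries 291, 277 and 297 CPM. GP libraries held 16.7, 23.8 and 22.0 CPM, and NP libraries 54.8, 8.27 and 7.12 CPM. Every MCC CD69-lo library now lay above every MCC CD69-hi library. The log2 difference, MCC CD69-hi minus MCC CD69-lo, was -0.47 ± 0.45 SE and did not pass (edgeR quasi-likelihood test, adjusted p = 0.368).

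**Figure D1:**
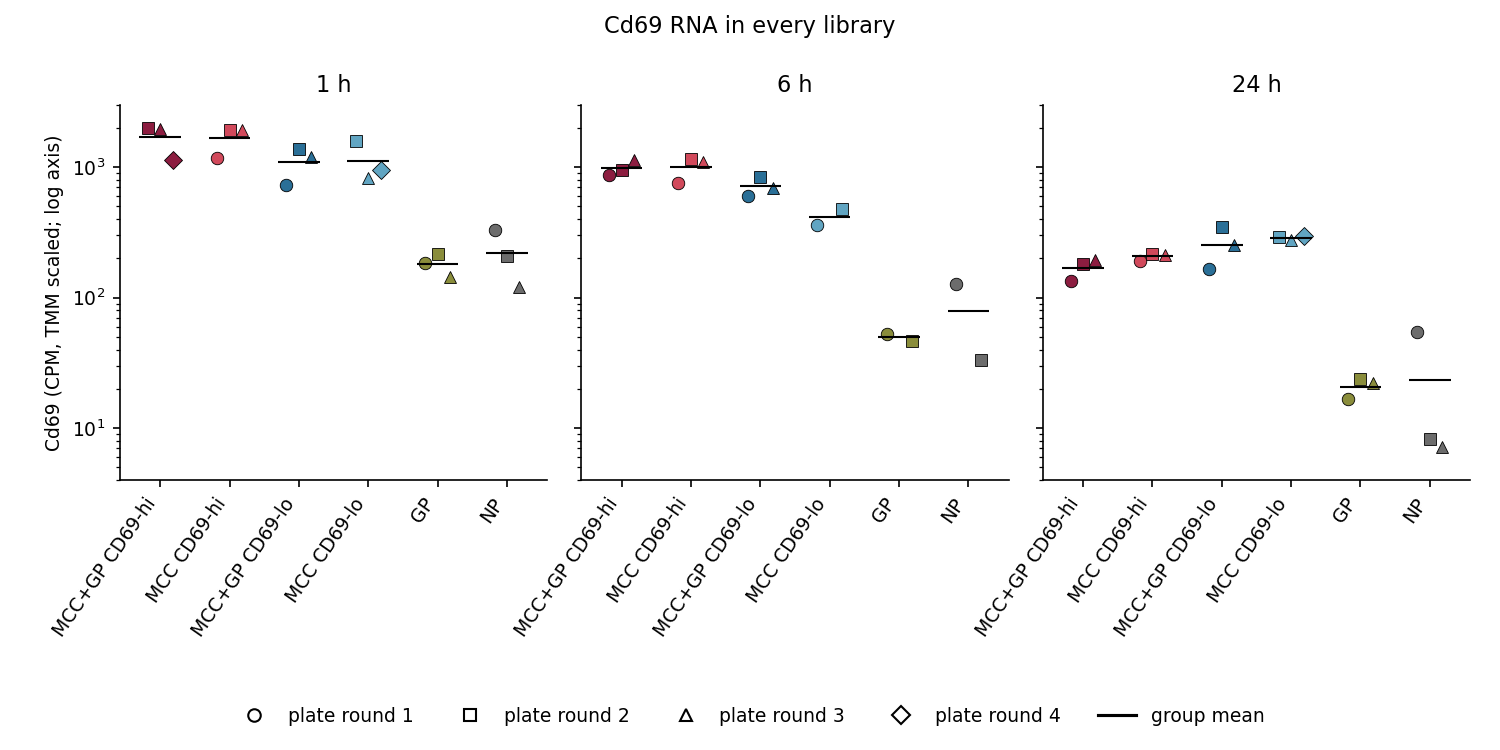
Cd69 RNA in each of the 51 libraries, in TMM-scaled CPM on a log axis, with 1 panel per time and the 6 phenotypes along the x axis. Points are libraries, their shape gives the plate round and the bar is the group mean; means run from 1704 CPM in MCC+GP CD69-hi cells at 1 h to 20.8 CPM in GP cells at 24 h.

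Ordered by mean, the 18 groups fell into blocks within which neighbours overlapped. Groups further apart within a block could still separate, as MCC CD69-lo and MCC CD69-hi did at 24 h. The highest were MCC+GP CD69-hi at 1704 ± 498 CPM and MCC CD69-hi at 1676 ± 431 CPM, both at 1 h (SD, n = 3 each), followed by MCC CD69-lo and MCC+GP CD69-lo at 1 h and MCC CD69-hi and MCC+GP CD69-hi at 6 h, which ended at 980 ± 135 CPM. MCC+GP CD69-lo at 6 h came next at 714 ± 124 CPM (n = 3) and then MCC CD69-lo at 6 h at 418 ± 85.2 CPM (n = 2). A block of 6 groups followed, from MCC CD69-lo at 24 h with 288 ± 10.3 CPM down to MCC+GP CD69-hi at 24 h with 170.3 ± 32.04 CPM. It also holds the cells without MCC at 1 h, NP at 219 ± 105 CPM and GP at 182 ± 35.4 CPM. The lowest were NP at 6 h (79.7 ± 65.8 CPM, n = 2), GP at 6 h (49.5 ± 4.51 CPM, n = 2), NP at 24 h (23.4 ± 27.2 CPM) and GP at 24 h (20.8 ± 3.72 CPM). Of the 17 neighbouring pairs in this order, 13 had overlapping libraries, and the 4 gaps lie before MCC+GP CD69-lo at 6 h, before MCC CD69-lo at 6 h, before MCC CD69-lo at 24 h and before NP at 6 h.

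Set against other genes per length within a library, Cd69 was among the most abundant transcripts early. Its median place among the 34923 features was 108 in MCC+GP CD69-hi and 96 in MCC CD69-hi cells at 1 h, 145 in MCC+GP CD69-lo and 167 in MCC CD69-lo cells, and 1055 in GP and 980 in NP cells. By 24 h the median place was 1371 in MCC+GP CD69-hi and 1192 in MCC CD69-hi cells, but 555 in MCC+GP CD69-lo and 517 in MCC CD69-lo cells. GP and NP cells were then at places 6565 and 9191, with NP libraries from 3553 to 9468. The shallow MCC+GP CD69-lo libraries at 24 h ran from place 239 to 899. They had only 5798 to 12124 features above 0, so their places are uncertain. By counts with no length scaling, the 1 h places were 43 in MCC+GP CD69-hi and 39 in MCC CD69-hi cells.

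On both sides of the gate Cd69 was higher than in cells without MCC at all 3 times. The CD69-hi cells were chosen for high CD69 protein, and no gate is named for NP or GP cells. Their differences from NP or GP are therefore not independent of the sort. In MCC CD69-hi cells Cd69 was 7.63-fold above NP at 1 h (log2 difference 2.93 ± 0.47 SE, adjusted p = 1.08e-05), a time at which 12.4% of the 17211 genes tested were called higher. At 6 h it was 12.6-fold above NP (3.66 ± 0.58, adjusted p = 2.25e-06, 23.2% of genes called higher), and at 24 h 9.05-fold above NP (3.18 ± 0.50, adjusted p = 1.39e-06, 29.2% called higher). Among 10154 genes with a mean of at least 5 CPM, this rise held place 253, 263 and 491 by size at 1, 6 and 24 h. The size of the rise did not pass a test of change with time, at 0.72 ± 0.67 for 6 h minus 1 h (adjusted p = 0.469, where 29.8% of genes were called) and 0.25 ± 0.65 for 24 h minus 1 h (adjusted p = 0.812, 45.1% called).

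In MCC CD69-lo cells Cd69 was 5.10-fold above NP at 1 h (2.35 ± 0.46, adjusted p = 0.0018), where 2.72% of genes were called higher. It was 5.24-fold above NP at 6 h (2.39 ± 0.57, adjusted p = 0.0135, 2.12% called higher) and 12.6-fold above NP at 24 h (3.65 ± 0.51, adjusted p = 3.01e-06, 9.83% called higher). Cd69 held place 155, 203 and 111 by size here. The 6 h call rests on 2 libraries a group and was lost without NP replicate 2 (1.68, adjusted p = 0.635) or MCC CD69-lo replicate 2 (2.10, adjusted p = 0.15), and with only these groups in the fit (2.41, adjusted p = 0.416). The 24 h call was also lost with only its own groups in the fit (3.75, adjusted p = 0.0629).

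With GP cells as the baseline, Cd69 again rose in both fractions at all 3 times. MCC+GP CD69-hi cells had 9.38-fold, 19.8-fold and 8.14-fold the Cd69 of GP cells at 1, 6 and 24 h. The log2 differences were 3.23 ± 0.48, 4.31 ± 0.61 and 3.03 ± 0.50, with adjusted p of 2.69e-06, 2.43e-07 and 3.04e-06, where 13.7%, 23.5% and 29.5% of genes were called higher. MCC+GP CD69-lo cells had 6.05-fold, 14.4-fold and 11.1-fold the Cd69 of GP cells. Their log2 differences were 2.596 ± 0.467, 3.85 ± 0.59 and 3.47 ± 0.59, with adjusted p of 0.000719, 2.08e-05 and 1.7e-05, where 1.99%, 7.42% and 15.3% of genes were called higher. The 1 h rise in MCC+GP CD69-lo cells held place 65 by size among the 10154 genes.

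**Figure D2:**
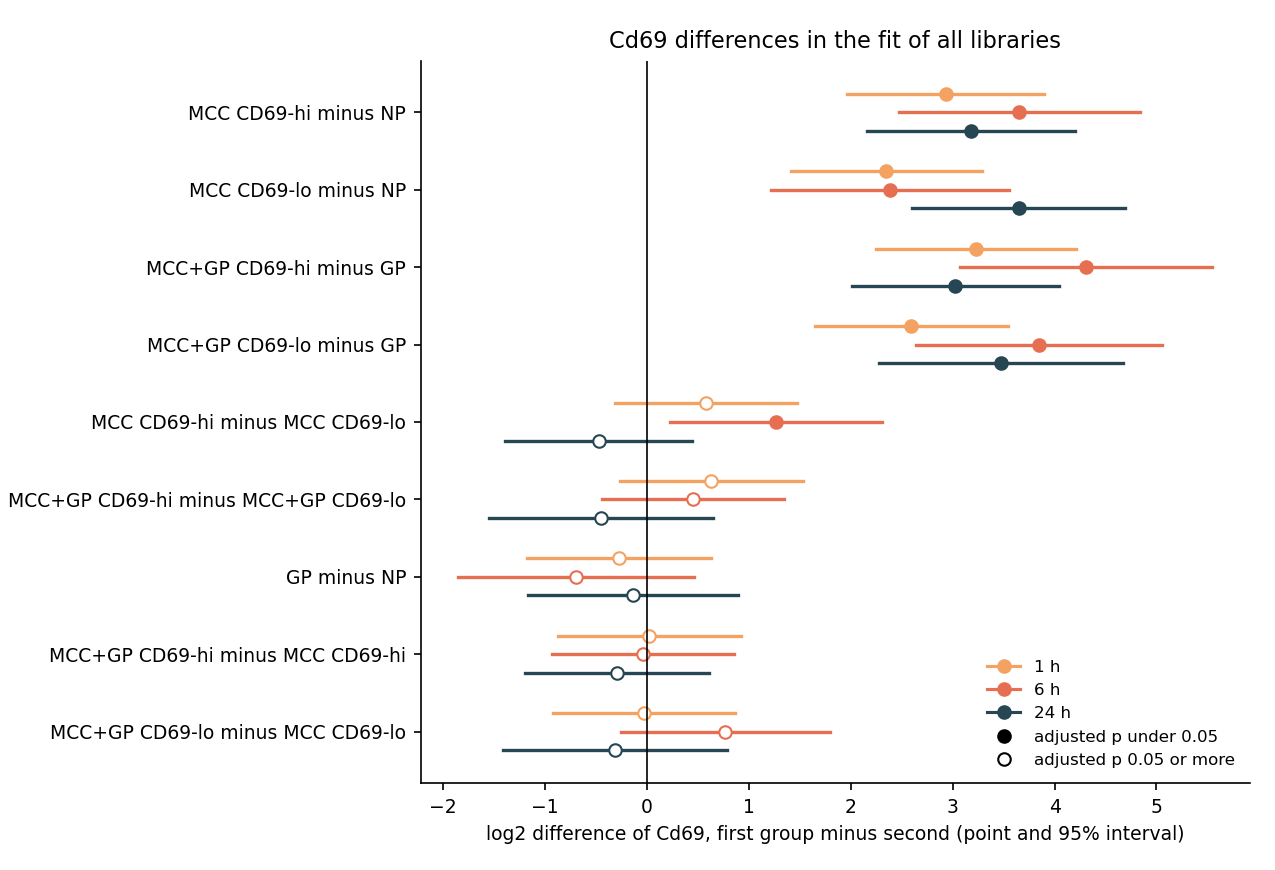
Log2 differences of Cd69 between groups with 95% confidence intervals, coloured by time, from the fit of all libraries. Filled points passed an adjusted p of 0.05; the 12 differences of MCC-treated cells from NP or GP lie between 2.35 and 4.31 and all passed, whereas of the 15 between the fractions or for GP only MCC CD69-hi minus MCC CD69-lo at 6 h (1.27) passed.

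The wells in the titles divide these values. In each of the 3 NP groups the library of plate round 1 held the most Cd69, and in each of the 9 MCC-treated groups that have a round 1 library that library held the least. Within a round, MCC CD69-hi over NP at 1 h was therefore 3.58-fold in round 1, 9.28-fold in round 2 and 15.95-fold in round 3. At 24 h it was 3.51-fold in round 1, 26.3-fold in round 2 and 30.0-fold in round 3, and at 6 h 5.97-fold in round 1 and 35.1-fold in round 2. The direction was the same in every round that holds both groups. Without round 1 the log2 differences were 3.62, 5.05 and 4.80 at 1, 6 and 24 h. When only the compared groups were fitted with the round as a block, the adjusted p was 0.067 at 1 h and 0.0775 at 24 h.

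At 6 and 24 h the NP libraries of round 1 also held more RNA of other immediate early genes. Egr1, an early growth response factor, was at 432 CPM in NP replicate 1 at 6 h against 7.02 CPM in replicate 2, and at 121 CPM in NP replicate 1 at 24 h against 4.51 and 4.85 CPM in the others. Fos, a subunit of AP-1, stood at 65.1 CPM in NP replicate 1 at 6 h against 11.1 CPM in replicate 2, and at 49.4 CPM at 24 h against 4.13 and 3.79 CPM. At 1 h Egr1 differed less, at 105 CPM in replicate 1 against 63.5 and 63.5 CPM. Nr4a1, which encodes a nuclear receptor of the same early response, was not highest there at 1 h, at 396 CPM in replicate 1 against 652 and 307 CPM. It stood at 153 CPM against 55.3 CPM at 6 h and at 39.5 CPM against 4.13 and 4.85 CPM at 24 h. The part of these libraries' origin in the Cd69 values was not tested.

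**Figure D3:**
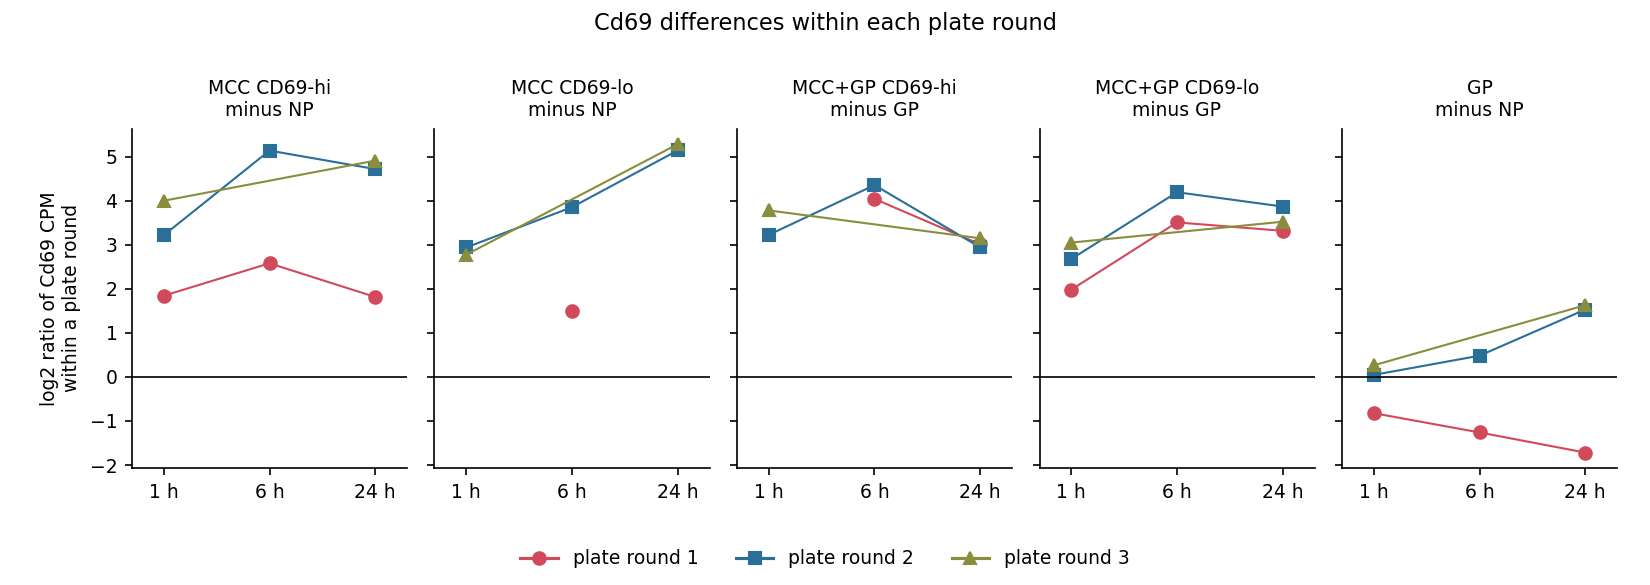
Log2 ratio of Cd69 CPM between paired groups within each plate round, by time. For MCC CD69-hi over NP the round 1 ratio is the lowest at each time (1.84, 2.58 and 1.81), and for GP over NP it is below 0 in round 1 and above 0 in rounds 2 and 3.

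RNA of other cells moved with MCC as well, as the marker sums above show for 1 h. At 6 h the myeloid and dendritic list summed to 422 to 938 plain CPM in MCC CD69-hi, 960 to 1197 in MCC CD69-lo and 44.1 to 151 in NP libraries. Of its 19 features tested, 9 rose and 1 fell in MCC CD69-hi cells against NP, where 23.2% of all genes rose and 23.6% fell. In MCC CD69-lo cells 6 rose and 0 fell, where 2.12% of all genes rose and 0% fell. The part of these features in the 6 h rise of Cd69 was not tested. With the B cell sum as a covariate the log2 difference of MCC CD69-hi from NP was 3.36 ± 0.69 at 1 h, 3.82 ± 0.61 at 6 h and 2.92 ± 0.58 at 24 h, and all of them passed (adjusted p = 0.000713, 2.51e-06 and 6.91e-05). Relative to T cell marker RNA, Cd69 stood at 4979 ± 946 counts per 10000 T cell marker counts in MCC CD69-hi and 540 ± 210 in NP cells at 1 h, and at 24 h at 948 ± 89.6 in MCC CD69-hi and 68.8 ± 81.2 in NP cells (SD, n = 3 each). Of the 10 T cell markers, 1 rose and 5 fell in MCC CD69-hi against NP at 1 h. Of all genes, 12.4% rose and 17% fell there. At 24 h 1 marker rose and 9 fell, where 29.2% of all genes rose and 28.7% fell. The T cell marker sum was then 1864 plain CPM in MCC CD69-hi and 3692 in NP cells. This ratio therefore has a moving base at both times.

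Across the CD69 gate, Cd69 RNA differed little compared with its difference from cells without MCC. The order of the fraction means turned between 6 and 24 h. MCC CD69-hi cells had 1.495-fold the Cd69 of MCC CD69-lo cells at 1 h (log2 difference 0.58 ± 0.44, adjusted p = 0.431), with overlapping libraries and 3.46% of genes called higher. At 6 h they had 2.405-fold as much (1.27 ± 0.51, adjusted p = 0.0447), without overlap, where 19.9% of genes were called higher. At 24 h they had 0.721 times as much (-0.47 ± 0.45, 95% interval -1.39 to 0.44, adjusted p = 0.368), again without overlap, where 32.6% of genes were called lower. The 6 h call was lost on leaving out any of 4 of the 5 libraries (1.07 to 1.53, adjusted p up to 0.241), and the adjusted p was 0.05 with other size factors. With the plate round as a block and only the compared groups fitted, the differences at 1 and 24 h passed too (0.91, adjusted p = 8.87e-10, and -0.60, adjusted p = 0.00225). That fit had almost as many coefficients as libraries, and only rounds 2 and 3 hold both groups, so these p-values cannot settle the differences. With only the compared groups fitted and no block, the 24 h difference also passed, in the same direction. The log2 ratios within rounds 2 and 3 were 0.278 and 1.223 at 1 h and -0.424 and -0.374 at 24 h. With the block in the fit of all libraries, the 1 and 24 h differences did not pass (0.48, adjusted p = 0.545, and -0.62, adjusted p = 0.276).

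The turn itself was tested as the difference between the differences. From 6 h to 24 h the CD69-hi minus CD69-lo difference changed by -1.74 ± 0.68 on the log2 scale (adjusted p = 0.0597), where 23.7% of genes were called. With the plate round as a block it changed by -1.93 (adjusted p = 0.0427) and without round 1 by -1.69 (adjusted p = 0.00505). Within rounds, MCC CD69-hi over MCC CD69-lo was 2.10-fold and 2.43-fold at 6 h, and 0.745-fold and 0.772-fold at 24 h. From 1 h to 24 h the change was -1.05 ± 0.63 (adjusted p = 0.173, 46.5% of genes called).

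With GP added, the high fraction again had the higher mean at 1 and 6 h and the lower at 24 h, and no difference passed in the fit of all libraries. With only the compared groups and the round as a block, those at 1 h (0.87, adjusted p = 1.14e-08) and 6 h (0.46, adjusted p = 0.00991) passed. At 1 h that fit had almost as many coefficients as libraries, so its p-value cannot settle the difference. With only the compared groups and no block, the differences at 6 h and 24 h passed, the latter with the high fraction lower. The log2 ratios within rounds were 0.548 and 0.73 at 1 h and 0.533, 0.161 and 0.691 at 6 h. MCC+GP CD69-hi over MCC+GP CD69-lo was 1.55-fold at 1 h (0.63 ± 0.44, adjusted p = 0.327, 5.38% called higher) and 1.37-fold at 6 h (0.46 ± 0.44, adjusted p = 0.417, 20.9% called higher), where the libraries did not overlap. At 24 h it was 0.733-fold (-0.45 ± 0.54, adjusted p = 0.548, 20% called lower), and the ratio lay below 1 in all 3 rounds, at 0.808, 0.526 and 0.770. The changes between times were -0.91 ± 0.70 for 24 h minus 6 h (adjusted p = 0.374, 27% called) and -1.08 ± 0.70 for 24 h minus 1 h (adjusted p = 0.226, 43.5% called). Scaling matters for the shallow MCC+GP CD69-lo libraries at 24 h: the median of all genes in this contrast was 0.501 with TMM and 0.0501 with relative log expression (RLE) factors, and the Cd69 difference was -0.91 with the latter (adjusted p = 0.186).

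RNA of other cells stood on the low side of the gate at 24 h. The 20 B cell genes summed to 225 to 360 plain CPM in MCC CD69-hi and 845 to 1802 in MCC CD69-lo libraries, and the myeloid and dendritic list to 129 to 302 in MCC CD69-hi and 1223 to 1976 in MCC CD69-lo libraries. The myeloid and dendritic list stood on the low side at 6 h too, when Cd69 was higher in CD69-hi cells. Its 6 h sums were 422 to 938 in MCC CD69-hi and 960 to 1197 in MCC CD69-lo libraries. With GP added they were 380 to 729 in MCC+GP CD69-hi and 1052 to 1757 in MCC+GP CD69-lo libraries. The B cell sums at 6 h overlapped between MCC CD69-hi (867 to 1682) and MCC CD69-lo (931 to 1420) libraries. With the B cell sum as a covariate the 24 h difference was -0.84 ± 0.63 (adjusted p = 0.292). Per 10000 T cell marker counts, Cd69 was at 948 ± 89.6 in MCC CD69-hi cells and 1227 ± 43.2 in MCC CD69-lo cells (SD, n = 3 each). The base of this ratio differed across the gate too. With MCC alone, the mean T cell marker sum at 24 h was 1864 plain CPM on the high side against 2619 on the low side. On the high side 1 of the 10 T cell markers was higher and 4 were lower, where 29.1% of all genes were higher and 32.6% lower. Of the 21 myeloid and dendritic features, 17 had counts in MCC CD69-hi libraries at 24 h, with Siglech, Xcr1, Clec9a and an Itgam feature at 0, and 19 had counts in MCC CD69-lo libraries. All 20 B cell genes had counts in both. The part of myeloid and dendritic RNA was not tested.

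Other genes separated the fractions far more than Cd69 did. S1pr1, which encodes the egress receptor that CD69 protein pulls from the surface, stood at 146 ± 67.7 CPM in MCC CD69-hi and 743 ± 83.5 CPM in MCC CD69-lo cells at 1 h (SD, n = 3 each). At 6 h it was at 13.2 ± 3.24 CPM in MCC CD69-hi (n = 3) and 648 ± 6.17 CPM in MCC CD69-lo cells (n = 2). At 24 h MCC CD69-hi cells held 6.61 ± 1.40 CPM and MCC CD69-lo cells 484 ± 52.7 CPM (n = 3 each). The log2 differences were -2.31 ± 0.21, -5.63 ± 0.26 and -6.18 ± 0.26 (adjusted p = 9.8e-12, 1.74e-25 and 5.47e-27). NP cells held 1256, 917 and 860 CPM of S1pr1 at the 3 times.

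Klf2, the transcription factor that switches on S1pr1, fell with it across the gate, with log2 differences of -1.54, -4.86 and -6.06 at 1, 6 and 24 h (adjusted p from 0.000502 to 6.49e-16). Of all genes, 9.06%, 22.5% and 32.6% were called lower in MCC CD69-hi than MCC CD69-lo cells at 1, 6 and 24 h. At 1 h 27.6% of the calls were higher under TMM and 48.4% under RLE factors. Ccr7, a chemokine receptor of lymph node homing, was lower at 1 h (-0.89 ± 0.23, adjusted p = 0.00729) and 6 h (-0.91 ± 0.25, adjusted p = 0.00297), and showed 0.12 ± 0.23 at 24 h (adjusted p = 0.676). Among other activation receptors, Il2ra, the interleukin-2 receptor alpha chain, was higher in MCC CD69-hi cells at all 3 times, by 1.98, 3.86 and 3.19 (adjusted p = 0.000154, 3e-09 and 3.12e-09). Cd44, an adhesion receptor of activated T cells, was higher at 6 h (1.80 ± 0.45) and 24 h (2.70 ± 0.42), with 0.88 ± 0.39 at 1 h (adjusted p = 0.142).

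**Figure D4:**
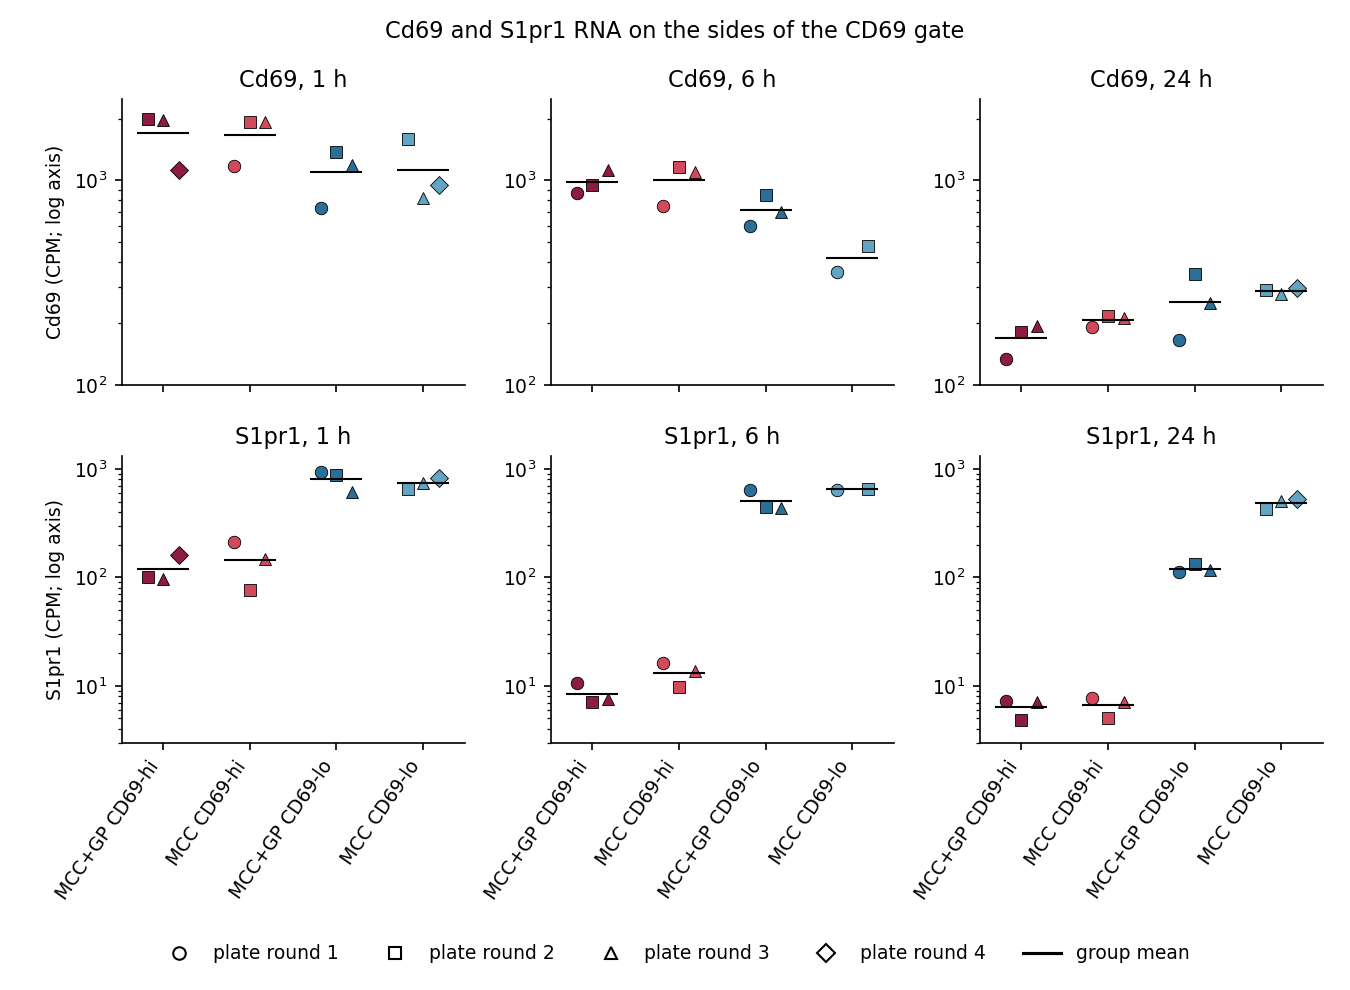
Cd69 (upper row) and S1pr1 (lower row) in CPM on log axes in the libraries of the 4 gated phenotypes at 1, 6 and 24 h; points are libraries and bars group means. S1pr1 is lower in the CD69-hi fractions at each time and by 24 h stands at 6.61 CPM in MCC CD69-hi and 484 CPM in MCC CD69-lo cells, while Cd69 at 24 h is at 208 CPM in MCC CD69-hi and 288 CPM in MCC CD69-lo cells.

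No difference made by GP, alone or with MCC, passed the test in the fit of all libraries. GP minus NP was -0.27 ± 0.45 at 1 h, -0.69 ± 0.57 at 6 h and -0.13 ± 0.51 at 24 h, each with an adjusted p of 1, and 0%, 0% and 0.00581% of genes were called at those times. Averaged over the times it was -0.37 ± 0.29 with a 95% interval from -0.96 to 0.23 (adjusted p = 1, 0% called). These signs differ between rounds. Within rounds, GP over NP was 0.5655-fold, 1.032-fold and 1.2-fold in rounds 1, 2 and 3 at 1 h, 0.4175-fold and 1.40-fold in rounds 1 and 2 at 6 h, and 0.304-fold, 2.88-fold and 3.09-fold in rounds 1, 2 and 3 at 24 h. Without round 1 the differences were 0.13, 0.47 and 1.58, and the last of these, from 23.8 and 22.0 CPM in GP against 8.27 and 7.12 CPM in NP cells, had an adjusted p of 0.0389.

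In the high fraction, MCC+GP CD69-hi minus MCC CD69-hi was 0.02 ± 0.44, -0.04 ± 0.44 and -0.29 ± 0.44 at 1, 6 and 24 h (adjusted p = 1 at each), where 0.68%, 0% and 0% of genes were called. The mean over the times was -0.10 ± 0.25 with an interval from -0.62 to 0.42 (0.0116% called). At 24 h MCC+GP CD69-hi was the lower in all 3 rounds, at 0.696, 0.841 and 0.910 times MCC CD69-hi, and passed when only these groups were fitted with the round as a block (-0.31, adjusted p = 0.0139).

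In the low fraction MCC+GP minus MCC alone was -0.03 ± 0.44 at 1 h (adjusted p = 1, 0% called), 0.77 ± 0.50 at 6 h (adjusted p = 0.904, 0% called) and -0.31 ± 0.54 at 24 h (adjusted p = 0.714, 19.3% called). All MCC+GP CD69-lo libraries at 6 h, with 598 to 846 CPM, lay above both MCC CD69-lo libraries, at 358 and 479 CPM, and the ratio was 1.67-fold and 1.77-fold in rounds 1 and 2. The mean over the times was 0.14 ± 0.28 with an interval from -0.44 to 0.72 (adjusted p = 0.809, 11% called).

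The mean of Cd69 was lower at each later time in all 6 phenotypes, but the interval that passed the test differed between them. From 6 h to 24 h it fell by 2.52 ± 0.47 on the log2 scale in MCC+GP CD69-hi (adjusted p = 4.28e-05, 17.6% of genes called lower) and by 2.28 ± 0.46 in MCC CD69-hi cells (adjusted p = 0.000156, 16.9% called lower). It fell by 1.62 ± 0.54 in MCC+GP CD69-lo cells (adjusted p = 0.0266, 14.8% called lower), a call lost on leaving out any of 4 of the 6 libraries. It was also lost with RLE factors (-1.25, adjusted p = 0.101), DESeq2 (-1.12), voom (-1.65), the B cell covariate (-1.51), no count filter (-1.56), and the round block on the compared groups (-1.25). MCC CD69-lo cells showed -0.54 ± 0.49 over the same interval (adjusted p = 0.573, 3.9% called lower), although the libraries did not overlap. From 1 h to 6 h the differences were -0.80 ± 0.44 in MCC+GP CD69-hi, -0.73 ± 0.44 in MCC CD69-hi, -0.62 ± 0.44 in MCC+GP CD69-lo and -1.42 ± 0.52 in MCC CD69-lo cells. None of these 4 passed (adjusted p = 0.145, 0.19, 0.363 and 0.0544, where 20.5%, 18.5%, 9.12% and 8.38% of genes were called lower), and the last passed with the round as a block (-1.57, adjusted p = 0.0372).

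Cells without MCC had less Cd69 at later times too. In GP cells it fell by 1.88 ± 0.54 from 1 h to 6 h (adjusted p = 0.0137, 9.37% called lower), followed by -1.24 ± 0.54 from 6 h to 24 h (adjusted p = 0.292, 1.95% called lower). The 6 h call was lost on leaving out either GP 6 h library (adjusted p = 0.0965 and 0.137) or GP 1 h replicate 2 (adjusted p = 0.0503). In NP cells the differences were -1.46 ± 0.53 from 1 h to 6 h (adjusted p = 0.0542, 8.74% called lower) and -1.80 ± 0.53 from 6 h to 24 h (adjusted p = 0.0557, 1.55% called lower). With the round as a block the first of these had an adjusted p of 0.0487, and without round 1 they were -2.27 and -2.15 (adjusted p = 4.97e-05 and 0.000478).

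Genes whose proteins bind CD69 or act beneath it did not follow Cd69 RNA as a group. Of 12 listed partners and ligands 11 could be tested, and in MCC CD69-hi against NP cells 2, 4 and 4 rose and 4, 3 and 4 fell at 1, 6 and 24 h. Of all genes, 12.4%, 23.2% and 29.2% rose and 17%, 23.6% and 28.7% fell. The balance at 1 h depends on the scaling, with 42.2% of the 5053 calls higher under TMM and 54.6% of 4682 under RLE factors. Slc7a5 and Slc3a2, the subunits of the LAT1 amino acid transporter that CD69 is reported to join, rose by 4.88 ± 0.41 and 2.84 ± 0.23 at 6 h (adjusted p = 8.46e-13 and 3.97e-16). At 1 h, when Cd69 was at its highest, Slc7a5 showed 0.12 ± 0.29 (adjusted p = 0.806). Myl12a, a myosin light chain of the family described as CD69 ligands, rose at all 3 times by 1.15, 1.85 and 1.16, while Myl12b fell (-0.58, -2.85 and -2.26). Stat5a and Stat5b, transcription factors described downstream of CD69, fell at 1 h (-1.62 and -1.97). At 24 h Stat5a was higher than in NP cells (2.61) and Stat5b lower (-1.23). Lgals1, encoding the ligand galectin-1, did not pass at any of the times (0.14, -0.64 and 0.53).

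The 21 listed transcription factors, those of T cell activation tied to the control of Cd69, rose more often than they fell in the same comparison. The list was chosen with earlier results of these data known, so its counts are a description only. In MCC CD69-hi against NP 12, 11 and 9 rose and 3, 6 and 4 fell at 1, 6 and 24 h, with median log2 differences of 0.93, 1.12 and 0.51 beside -0.05, 0 and -0.14 over all genes. In MCC CD69-lo against NP 9, 11 and 10 rose and 0, 0 and 1 fell. Of all genes, 2.72%, 2.12% and 9.83% rose and 0.436%, 0% and 8.67% fell. Egr2 and Egr3 rose in MCC CD69-hi at all 3 times, by 5.47 and 6.76 at 1 h and 4.41 and 2.72 at 24 h. Rel, an NF-kB subunit, rose by 2.11, 2.69 and 1.86, and Nfkb1 by 1.88, 3.37 and 2.68.

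In MCC CD69-hi against MCC CD69-lo cells 5, 7 and 5 of the 21 were higher and 2, 9 and 8 lower at 1, 6 and 24 h, beside 3.46%, 19.9% and 29.1% of all genes higher and 9.06%, 22.5% and 32.6% lower. At 24 h both shares of the list were near those of all genes. Fos was lower in MCC CD69-hi cells at 6 h (-3.55) and 24 h (-4.36, adjusted p = 3.6e-05 and 2.76e-06), and so was Fosb (-4.89 and -6.18). Egr1 was lower at 24 h (-3.42, adjusted p = 0.000421), when it stood at 76.8 ± 16.4 CPM in MCC CD69-hi and 822 ± 120 CPM in MCC CD69-lo cells (SD, n = 3 each). Nfkb1 and Rel were higher at all 3 times, by 1.41, 2.25 and 1.71 and by 0.91, 1.38 and 0.67, and so was Fosl1, an AP-1 subunit, by 0.87, 2.81 and 3.22.

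Of the 6 genes for proteins that bind AU-rich elements, 2, 4 and 3 rose and 3, 1 and 3 fell in MCC CD69-hi against NP at 1, 6 and 24 h, beside 12.4%, 23.2% and 29.2% of all genes rising and 17%, 23.6% and 28.7% falling. Zfp36, which encodes the decay factor tristetraprolin, rose by 1.68 ± 0.31 at 1 h, showed -0.39 ± 0.33 at 6 h (adjusted p = 0.358) and fell by 2.01 ± 0.31 at 24 h. Zfp36l2, of the same family, fell at all 3 times (-2.06, -2.70 and -1.47). Elavl1, which encodes the stabilising factor HuR, fell by 0.55 ± 0.14 at 1 h and rose by 1.06 ± 0.16 at 6 h and 1.61 ± 0.14 at 24 h. Across the gate Zfp36 was lower in MCC CD69-hi than MCC CD69-lo cells at 6 h (-1.30) and 24 h (-2.63).

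Cd69 lies in the NK gene complex, among other genes for lectin-like receptors. Clec2d ends 80789 bases before it and Clec12a starts 74408 bases after it, both on chromosome 6 of GRCm38. Of 23 listed genes 18 could be tested, and in MCC CD69-hi against NP 3, 2 and 2 rose and 0, 2 and 3 fell at 1, 6 and 24 h. Of all genes 12.4%, 23.2% and 29.2% rose and 17%, 23.6% and 28.7% fell, so the neighbours' shares lay near or below those of all genes. Clec2d, whose protein is a ligand of NKR-P1 receptors, showed -0.26 ± 0.23 at 1 h (adjusted p = 0.431) and rose by 0.69 ± 0.23 at 6 h (adjusted p = 0.0108). Clec2i fell at 6 h (-0.76 ± 0.23) and 24 h (-2.08 ± 0.21). At 24 h 14 of the 18 were lower in MCC CD69-hi than MCC CD69-lo cells and 16 were lower in MCC+GP CD69-hi than MCC+GP CD69-lo cells, where 32.6% and 20% of all genes were lower. Several of these, such as Clec9a and Klrd1, are markers of dendritic or NK cells. The sums of the myeloid and dendritic list and of a list of NK and CD8 markers were higher in the low fractions at that time. Against GP cells, however, Klrd1 was lower in MCC+GP CD69-lo cells at 24 h (-1.62, quasi-likelihood adjusted p = 0.0429). That call was lost with RLE factors (-1.34, adjusted p = 0.118). The part of dendritic and NK cell RNA in these counts was not tested.

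By the pattern of the 18 group means, the gene most like Cd69 was Nr4a1, which encodes the orphan nuclear receptor Nur77 induced by T cell receptor signals. Its Pearson r to Cd69 on log2 CPM was 0.991 among 10153 genes with a mean of at least 5 CPM. The next were Nfkbid (0.980), a regulator of NF-kB, and Nr4a3 (0.979), then Srgn (0.968), which encodes the proteoglycan core serglycin, and Nr4a2 (0.967). Sdc4 (0.959), Egr2 (0.955), Tagap (0.948), Rel (0.944) and Gem (0.943) complete the 10 highest. All genes share the same libraries, depths and times, so these r describe 18 points and carry no test. Nr4a1 stood at 8160, 9555, 6249 and 6493 CPM in MCC+GP CD69-hi, MCC CD69-hi, MCC+GP CD69-lo and MCC CD69-lo cells and at 472 and 452 CPM in GP and NP cells at 1 h, and at 284 CPM in MCC CD69-hi and 653 CPM in MCC CD69-lo cells at 24 h, so its low fraction also had the higher mean at 24 h.

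Genes used beside CD69 as activation markers followed Cd69 less closely. The r of Il2ra was 0.689 (place 355) and that of Cd44 0.705 (place 313). For S1pr1, the egress receptor gene, it was -0.332. The least like Cd69 were Zfand1 (-0.895), Nbeal2 (-0.882), Syde1 (-0.877), Tmem245 (-0.877) and Eapp (-0.870). Of the 10 most like genes 8 were shared when the 3 NP groups were left out, 9 with a minimum of 20 CPM and 5 by Spearman's rho.

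The libraries within a group also varied together. Over deviations from the group means, with 33 residual degrees of freedom, Nr4a1 again led with an r of 0.845 and was the only gene in both sets of 10. It was followed by Egr1 (0.782), Hspa5 (0.719), a chaperone of the endoplasmic reticulum, Eif1 (0.715), a translation initiation factor, and Dusp2 (0.713), a MAP kinase phosphatase. The others were Dusp5 (0.650), Zfp36 (0.642), Nfkbiz (0.587), Atf4 (0.586) and Per1 (0.580). Without the libraries of plate round 1, 2 of these 10 genes were among the 10 highest. The r was then lower for Egr1 (0.369), Hspa5 (0.420), Zfp36 (0.476), Nfkbiz (0.211), Nr4a1 (0.754) and Dusp5 (0.557). It was about the same for Eif1 (0.712) and Per1 (0.594) and higher for Dusp2 (0.835) and Atf4 (0.742).

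**Figure D5:**
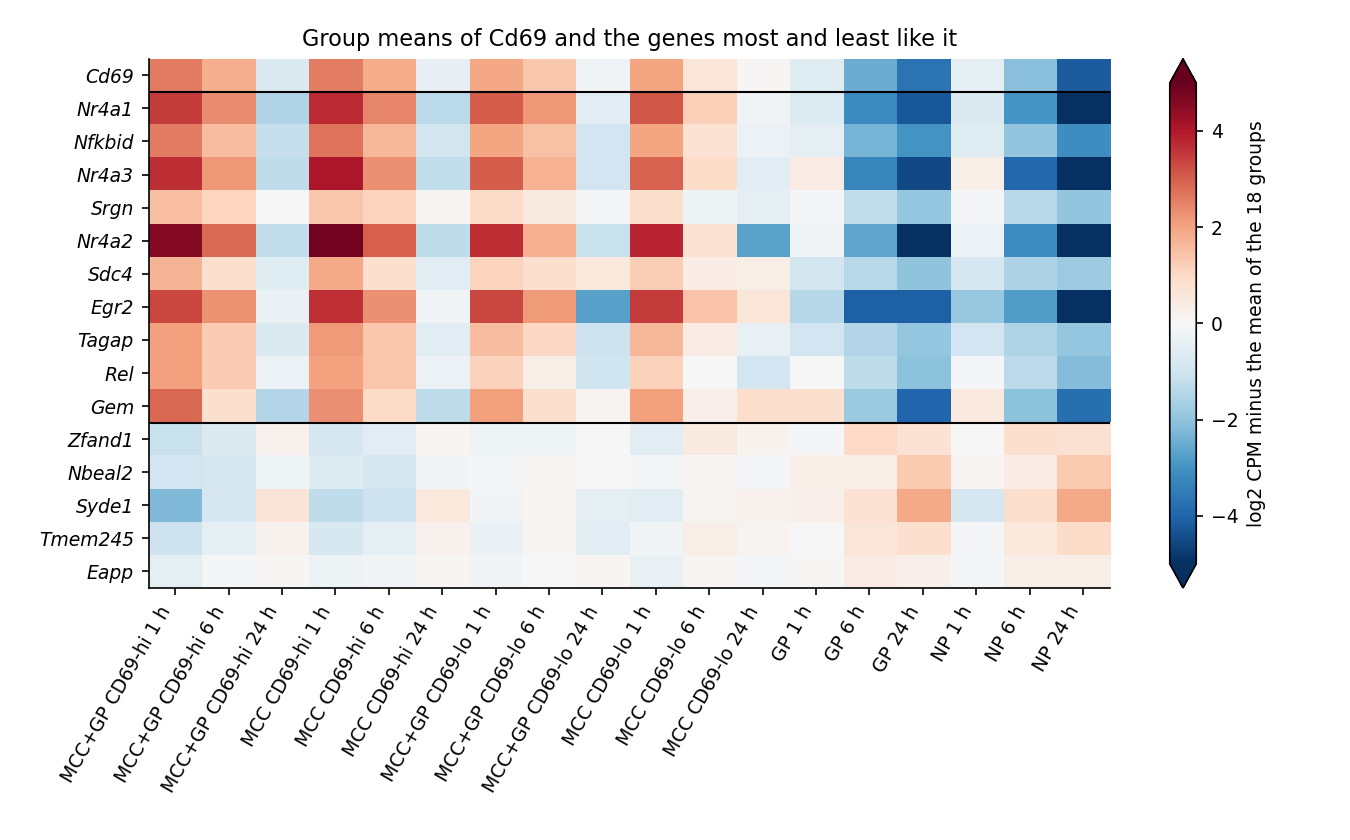
Heat map of the 18 group means of log2 CPM minus each gene's mean over the groups, for Cd69 in the top row, the 10 genes most like it and the 5 least like it. The 10 share the high values of MCC-treated groups at 1 h with Cd69 and the low values of GP and NP at 24 h; r runs from 0.991 for Nr4a1 to 0.943 for Gem.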

How the data were processed

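RNA-seq counts per gene were made by the authors and deposited for 51 libraries; the submitters' processing notes name bcl2fastq 2.20, STAR 2.6.1c, HTSeq 0.9.1 and mm10, with the strand setting not given in the sources used here. A second deposited table, labelled TPM by the authors, is scaled by length to a fixed total per library (here below the usual TPM total) and served only to place Cd69 among genes per length. Counts of 17211 genes that passed edgeR's filterByExpr were scaled by TMM and fitted with 1 coefficient per group in edgeR 4.0.16 (R 4.3.3). Each difference had a two-sided quasi-likelihood F test and Benjamini-Hochberg adjustment over all genes, with calls at an adjusted p under 0.05. DESeq2 1.42.0 and voom from limma 3.58.1 were alternatives. CPM carry a prior count of 2 on the log2 scale where correlated. Cd69, the gene lists and the markers were chosen with earlier results of these data known. Genes named were Cd69, those most or least like it (10 and 5 by r), and members of the lists. Egr2, Egr3, Rel, Nfkb1, Fosb, Fosl1, Stat5a, Stat5b, Ccr7, Elavl1 and Nr4a1 at single times were given values after these were seen. No replicates were duplicates (chi-square per degree of freedom at least 3.91 over 48 pairs). Replicate numbers follow accession order, so pairing was taken from the plate rounds: same-round deviations correlated above 0.1 in 52 of 65 pairs, and in every pair of 9 of the 11 comparisons with 3 rounds. The tests were checked on simulated data with independent libraries and no plate-round effect, so that check does not cover correlation within rounds. Counts over the list of egress genes are not reported here.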

Additional observations from a re-analysis of the deposited data

Results flagged for a closer look

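The CD69-hi and CD69-lo fractions of MCC-treated cells differed in opposite directions at 6 and 24 h. MCC CD69-hi minus MCC CD69-lo was 1.27 at 6 h and -0.47 at 24 h on the log2 scale, with no overlap between the libraries at either time. The difference between the times was tested, at -1.74 ± 0.68 (edgeR quasi-likelihood test, adjusted p = 0.0597).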

How the results depend on the processing

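The fit of all libraries called 17 of 48 log2 differences of Cd69, and 692 of 811 alternative values kept direction and side of the threshold. The values below are log2 differences, and the cause of each change was not tested.

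With B cell RNA as a covariate, MCC CD69-lo 6 h minus 1 h (-1.56) passed. There, MCC+GP CD69-lo 24 h minus 6 h (-1.51) no longer passed. There, MCC CD69-hi minus NP, 24 h minus 1 h (-0.45) changed sign. With DESeq2, NP 6 h minus 1 h (-1.41), NP 24 h minus 6 h (-1.73), MCC CD69-lo 6 h minus 1 h (-1.37), MCC CD69-hi minus MCC CD69-lo, 24 h minus 6 h (-1.93) and MCC+GP CD69-hi minus MCC+GP CD69-lo, 24 h minus 1 h (-1.94) passed. There, MCC+GP CD69-lo 24 h minus 6 h (-1.12) no longer passed. There, MCC+GP CD69-lo minus MCC CD69-lo at 24 h (0.04998) and MCC CD69-hi minus NP, 24 h minus 1 h (-0.091) changed sign. With RLE size factors, MCC CD69-hi minus MCC CD69-lo, 24 h minus 6 h (-1.93) and MCC+GP CD69-hi minus MCC+GP CD69-lo, 24 h minus 1 h (-1.80) passed. There, MCC CD69-hi minus MCC CD69-lo at 6 h (1.22) and MCC+GP CD69-lo 24 h minus 6 h (-1.25) no longer passed. There, MCC CD69-hi minus NP, 24 h minus 1 h (-0.0627) changed sign. With voom and a weight per group, NP 6 h minus 1 h (-1.65), NP 24 h minus 6 h (-2.21), MCC CD69-lo 6 h minus 1 h (-1.35) and MCC CD69-hi minus MCC CD69-lo, 24 h minus 6 h (-1.73) passed. There, MCC+GP CD69-lo 24 h minus 6 h (-1.65) no longer passed. There, GP minus NP at 24 h (0.56) changed sign. Without the filter on low counts, MCC CD69-hi minus MCC CD69-lo at 6 h (1.32) and MCC+GP CD69-lo 24 h minus 6 h (-1.56) no longer passed. With only the compared groups fitted, MCC CD69-hi minus MCC CD69-lo at 24 h (-0.71), MCC+GP CD69-hi minus MCC+GP CD69-lo at 6 h (0.45), MCC+GP CD69-hi minus MCC+GP CD69-lo at 24 h (-0.93), GP 24 h minus 6 h (-1.25), MCC CD69-hi 6 h minus 1 h (-0.90), MCC CD69-lo 6 h minus 1 h (-1.44), MCC+GP CD69-hi 6 h minus 1 h (-1.07), MCC CD69-hi minus MCC CD69-lo, 24 h minus 1 h (-1.33), MCC CD69-hi minus MCC CD69-lo, 24 h minus 6 h (-1.91), MCC+GP CD69-hi minus MCC+GP CD69-lo, 24 h minus 1 h (-1.59) and MCC+GP CD69-hi minus MCC+GP CD69-lo, 24 h minus 6 h (-1.16) passed. There, MCC CD69-lo minus NP at 6 h (2.41) and MCC CD69-lo minus NP at 24 h (3.75) no longer passed. There, MCC+GP CD69-lo minus MCC CD69-lo at 24 h (0.0205) and MCC CD69-hi minus NP, 24 h minus 1 h (-0.00436) changed sign. With the plate round as a replicate block in the fit of all libraries, NP 6 h minus 1 h (-1.48), MCC CD69-lo 6 h minus 1 h (-1.57) and MCC CD69-hi minus MCC CD69-lo, 24 h minus 6 h (-1.93) passed. With the plate-round block and only the compared groups, MCC CD69-hi minus MCC CD69-lo at 1 h (0.91), MCC CD69-hi minus MCC CD69-lo at 24 h (-0.60), MCC+GP CD69-hi minus MCC+GP CD69-lo at 1 h (0.87), MCC+GP CD69-hi minus MCC+GP CD69-lo at 6 h (0.46), MCC+GP CD69-hi minus MCC CD69-hi at 24 h (-0.31), NP 24 h minus 6 h (-1.46), GP 24 h minus 6 h (-1.30), MCC CD69-hi 6 h minus 1 h (-0.89), MCC+GP CD69-hi 6 h minus 1 h (-1.23), MCC+GP CD69-lo 6 h minus 1 h (-0.57), MCC CD69-hi minus MCC CD69-lo, 24 h minus 1 h (-1.34), MCC CD69-hi minus MCC CD69-lo, 24 h minus 6 h (-1.70), MCC+GP CD69-hi minus MCC+GP CD69-lo, 24 h minus 1 h (-1.65) and MCC+GP CD69-hi minus MCC+GP CD69-lo, 24 h minus 6 h (-1.21) passed. There, MCC CD69-hi minus NP at 1 h (3.20), MCC CD69-hi minus NP at 24 h (3.30), MCC CD69-lo minus NP at 6 h (2.63) and MCC+GP CD69-lo 24 h minus 6 h (-1.25) no longer passed. There, GP minus NP at 24 h (0.24), MCC+GP CD69-lo minus MCC CD69-lo at 1 h (0.13) and MCC+GP CD69-lo minus MCC CD69-lo at 24 h (0.38) changed sign. Without plate round 1, chosen after seeing the data, MCC CD69-hi minus MCC CD69-lo at 1 h (0.82), NP 6 h minus 1 h (-2.27), NP 24 h minus 6 h (-2.15), MCC CD69-hi 6 h minus 1 h (-0.85), MCC CD69-lo 6 h minus 1 h (-1.28), MCC+GP CD69-hi 6 h minus 1 h (-0.84), MCC+GP CD69-lo 6 h minus 1 h (-0.79), MCC CD69-hi minus NP, 6 h minus 1 h (1.42), MCC CD69-hi minus NP, 24 h minus 1 h (1.18), MCC CD69-hi minus MCC CD69-lo, 24 h minus 1 h (-1.25), MCC CD69-hi minus MCC CD69-lo, 24 h minus 6 h (-1.69) and MCC+GP CD69-hi minus MCC+GP CD69-lo, 24 h minus 1 h (-1.10) passed. There, GP minus NP at 1 h (0.13), GP minus NP at 6 h (0.47), GP minus NP at 24 h (1.58), MCC+GP CD69-hi minus MCC CD69-hi at 1 h (-0.17), MCC+GP CD69-lo minus MCC CD69-lo at 1 h (0.19) and GP minus NP, mean of 3 times (0.73) changed sign. Without the 3 MCC+GP CD69-lo libraries at 24 h, NP 24 h minus 6 h (-1.81) and MCC CD69-lo 6 h minus 1 h (-1.50) passed. Leaving out 1 library at a time changed the call or the sign of GP minus NP at 1 h (-0.56 to 0.14), MCC CD69-hi minus NP, 24 h minus 1 h (-0.31 to 1.74), MCC+GP CD69-hi minus MCC CD69-hi at 1 h (-0.18 to 0.27), MCC+GP CD69-lo minus MCC CD69-lo at 1 h (-0.21 to 0.31), GP minus NP at 6 h (-1.35 to 0.56), NP 6 h minus 1 h (-2.70 to -0.79), GP minus NP, mean of 3 times (-0.59 to 0.16), MCC CD69-hi minus MCC CD69-lo at 6 h (1.07 to 1.53), GP 6 h minus 1 h (-2.02 to -1.67), MCC+GP CD69-hi minus MCC CD69-hi at 6 h (-0.21 to 0.0792), GP minus NP at 24 h (-0.59 to 1.45), NP 24 h minus 6 h (-3.40 to -0.56), MCC+GP CD69-lo 24 h minus 6 h (-1.70 to -1.27), MCC CD69-lo minus NP at 6 h (1.68 to 3.59), MCC CD69-hi minus NP, 6 h minus 1 h (-0.0297 to 1.88) and MCC CD69-lo 6 h minus 1 h (-1.73 to -1.09), given as lowest to highest. Of the 10 genes most like Cd69, 5 were shared with the 10 by Spearman's rho. Of the 10 most like it within groups, 2 were shared without plate round 1. Cd69's median place in MCC CD69-hi cells at 1 h was 39 by counts with no length scaling. The block fitted only to the compared groups also used the rounds, was added after seeing the data, and gave no value for 2 of the differences. It had few libraries beyond its coefficients, so its p-values are weak ground for a call. Cd69 counts of 52, 21 and 97 in the MCC+GP CD69-lo libraries at 24 h limit every difference that uses them.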
